A study of Mus musculus with 15 samples.

Results

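The cytosolic ribosomal protein genes were examined in cultured bone marrow mesenchymal stromal cells (MSCs) of mice with and without the taurine transporter TauT. The members were all genes of the count table whose full symbol is *Rpl* or *Rps* followed by digits and, where present, the ending a, x, l or l1, together with *Rplp0*, *Rplp1*, *Rplp2* and *Rpsa*. Symbols ending in -ps were left out. The rule gave 86 genes of the 56832 in the table, 53 of the large and 33 of the small subunit, and used no measured value. Of these, 83 passed the filter on low counts and were tested among 18263 genes.

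Bulk RNA-sequencing libraries were made from CD45- MSCs grown under low oxygen from the femurs and tibias of 16 week old C57BL/6J mice. TauT+/+ mice were compared with TauT-/- mice, in which *Slc6a6*, the gene of TauT, is disrupted in the whole animal and not only in MSCs. There were 4 TauT+/+ and 4 TauT-/- libraries labelled male and 3 TauT+/+ and 4 TauT-/- libraries labelled female. No other allele or agent separated the groups.

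Total counts ran from 12761107 to 20781070 under the female label and from 69764291 to 101575071 under the male label, so depth and labelled sex cannot be told apart. *Slc6a6* overlapped between genotypes, at 586 to 2655 CPM in TauT+/+ and 392 to 1571 CPM in TauT-/- libraries. CPM are counts divided by the TMM-scaled library size, on the usual scale of 1e6 counts. The libraries labelled TauT-/- male 1 and female 1 were nearly identical, as were TauT+/+ male 1 and female 1, with spreads of their log2 ratio over 10201 genes of 0.102 and 0.114, against 0.261 for the next closest libraries. Counting error alone gives 0.0589 and 0.0618 for these pairs, which does not tell whether each pair is 2 samples or 1 sample prepared again. They enter n as labelled, and the main results are also given with each pair counted as 1 library and without them. Sex-linked genes went against the label in 3 libraries. *Xist*, which is transcribed from the inactive X, was at 833 CPM in TauT+/+ male 1 and 718 CPM in TauT-/- male 1, while the Y-linked *Ddx3y* was at 0.0144 and 0.182 CPM there, the female pattern that their near-identical counterparts also show. The reverse held in TauT+/+ female 3, where *Xist* was at 14.0 and *Ddx3y* at 81.7 CPM. Whether libraries were exchanged or prepared again was not tested. Nothing in the labels ties each library to a separate mouse, so the p-values measure only the spread between these libraries.

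A cytosolic ribosome is built from ribosomal RNA and a set of proteins that are needed in nearly equal numbers, and the genes of these proteins are expressed at high levels in almost every cell. Their mRNAs share a run of pyrimidines at the 5' end, the TOP tract, through which the kinase mTOR controls their translation as a group. A few genes have a paralog that can take the place of the usual protein in some tissues or is switched on by stress. Among these are *Rpl3l* of striated muscle, *Rpl39l* and *Rpl10l* of male germ cells and *Rps27l*, a target of p53.

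The promoters are shown for *Rps27l* and its partner *Rps27*, for *Rps25*, and for *Rpl39l* and its partner *Rpl39*, since the values below turn on these genes. Each runs from 100 bases before to 30 bases after the first base annotated by RefSeq on GRCm38.p6, in the direction of the gene. Where RefSeq lists several starts the outermost was taken. Capitals mark the letters CCGGAAG or their reverse complement CTTCCGG. These are an extended form of the site bound by ETS factors such as GABPA, a site known from many ribosomal protein promoters.
*Rps27*, minus strand, chr3:90213619-90213748: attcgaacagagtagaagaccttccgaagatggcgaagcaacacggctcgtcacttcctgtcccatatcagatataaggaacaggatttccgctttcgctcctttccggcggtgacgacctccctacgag
*Rps27l*, plus strand, chr9:66945986-66946115: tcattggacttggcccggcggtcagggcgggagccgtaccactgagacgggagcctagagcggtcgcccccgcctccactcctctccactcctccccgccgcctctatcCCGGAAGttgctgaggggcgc
*Rps25*, plus strand, chr9:44407614-44407743: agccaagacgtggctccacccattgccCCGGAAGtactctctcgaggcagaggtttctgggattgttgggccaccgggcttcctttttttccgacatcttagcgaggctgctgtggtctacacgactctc
*Rpl39*, minus strand, chrX:37085193-37085322: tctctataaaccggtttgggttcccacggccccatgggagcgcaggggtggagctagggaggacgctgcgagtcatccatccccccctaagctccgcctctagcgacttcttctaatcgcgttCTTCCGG
*Rpl39l*, plus strand, chr16:10170128-10170257: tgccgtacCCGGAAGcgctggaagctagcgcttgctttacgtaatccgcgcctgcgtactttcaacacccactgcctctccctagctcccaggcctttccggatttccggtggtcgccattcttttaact

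The CCGGAAG letters were present in the stretches of *Rps27l*, *Rps25*, *Rpl39* and *Rpl39l*, and absent from that of *Rps27*. Shorter forms of the site were not looked for, so this does not show that *Rps27* lacks an ETS site. The promoter table held 63 of the 86 members. Over the full 300 bases it gives for a start (250 before and 50 after), 25 of them (39.7%) carried CCGGAAG on either strand, against 9.93% of the 27025 genes in the table. A TOP-like tract, taken as a C followed by at least 6 pyrimidines on the gene's strand within 50 bases of the start, was present in 55 members (87.3%) and in 44.5% of all genes. The tract allows C or T at each position and is thus a looser match than the fixed ETS letters, and some RefSeq starts lie upstream of the base where transcription begins.

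In every library the members together took 1.65% to 3.63% of all counts. The shares in TauT+/+ male libraries 1 to 4 were 2.93%, 2.18%, 2.13% and 2.23%, and those in TauT+/+ female libraries 1 to 3 were 2.98%, 1.65% and 2.09%. TauT-/- male libraries 1 to 4 had 3.63%, 2.28%, 2.52% and 3.09%, and TauT-/- female libraries 1 to 4 had 3.55%, 1.97%, 2.21% and 2.52%. The genotypes overlapped, and within each genotype the near-identical libraries numbered 1 were the highest. TauT+/+ libraries had a mean share of 2.31% ± 0.48 (SD, n = 7), and the mean of TauT-/- libraries, 2.72% ± 0.63 (SD, n = 8), was higher by less than the SD of either genotype. Counting each near-identical pair once, by either of its libraries, gave means of 2.20% to 2.21% in TauT+/+ and 2.59% to 2.60% in TauT-/- libraries. A sum over the members was not tested.

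**Figure D1:**
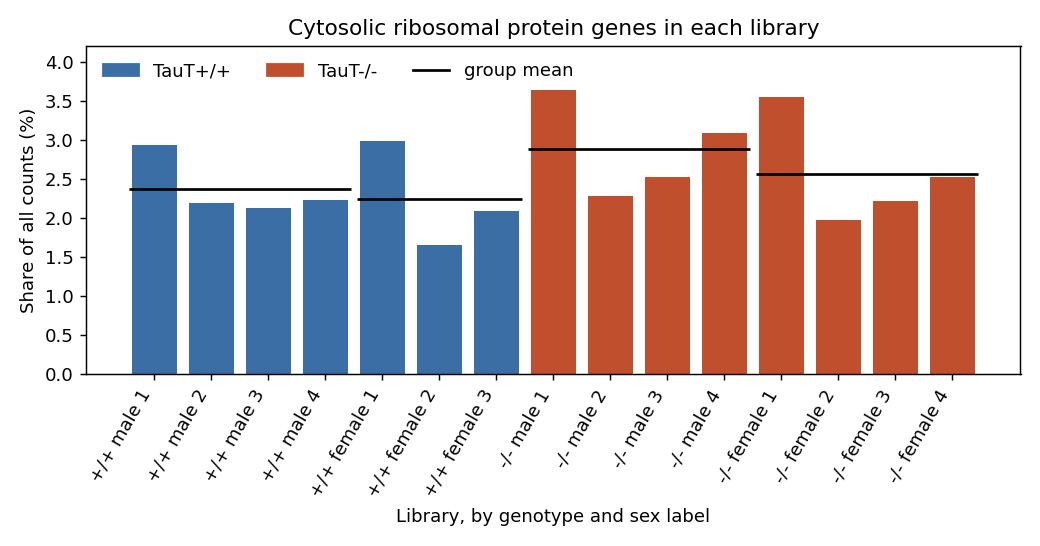
Share of all counts on the 86 ribosomal protein genes (y axis, percent) in each of the 15 libraries (x axis), with bars coloured by genotype and lines at the group means. The shares run from 1.65% to 3.63%, overlap between the genotypes and are highest, within each genotype, in the libraries numbered 1.

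The subunits kept their balance. Counts on large subunit genes were 1.35 to 1.51 times those on small subunit genes in all 15 libraries, with mean ratios of 1.43 for TauT+/+ (SD 0.043, 7 libraries) and 1.41 for TauT-/- (SD 0.040, 8 libraries). Ribosomal pseudogenes with -ps symbols took 0.00222% to 0.00466% of all counts.

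Most ribosomal protein genes had a log2 fold change slightly above 0 in TauT-/- MSCs, and no member passed the test. The median log2 fold change of TauT-/- over TauT+/+ was 0.26 over the 83 tested members, a fold of 1.2, and 0.0049 over all genes tested. The value was above 0 for 80 members (96.4%), against 50.5% of all genes, and the median was 0.25 for the large and 0.27 for the small subunit. By edgeR's quasi-likelihood test with labelled sex in the model and Benjamini-Hochberg adjustment over all genes, 0 members passed an adjusted p of 0.05, where 1.16% of all genes passed. The smallest adjusted p of a member was 0.0719. At an unadjusted p under 0.05 there were 21 members, all higher in TauT-/- libraries (25.3%, against 11.8% of all genes that were higher at this level). The share of members was below that of all genes in 8 of the 15 fits that left out a library, with 4.82% to 9.76% of members against 9.15% to 12.9% of all genes, and these were the fits without TauT+/+ male 3, male 4, female 2 or female 3 and without TauT-/- male 1, male 3, female 1 or female 4. In the other 7 it was 9.76% to 38.6%, against 8.35% to 11.7% of all genes. The lowest of these, without TauT+/+ male 2, was 9.76% against 8.98%. The ranges of the genotypes overlapped in all 83 members. As only 1.12% of all genes had ranges that did not overlap and 1.16% passed the test, these counts of 0 say little about the members.

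**Figure D2:**
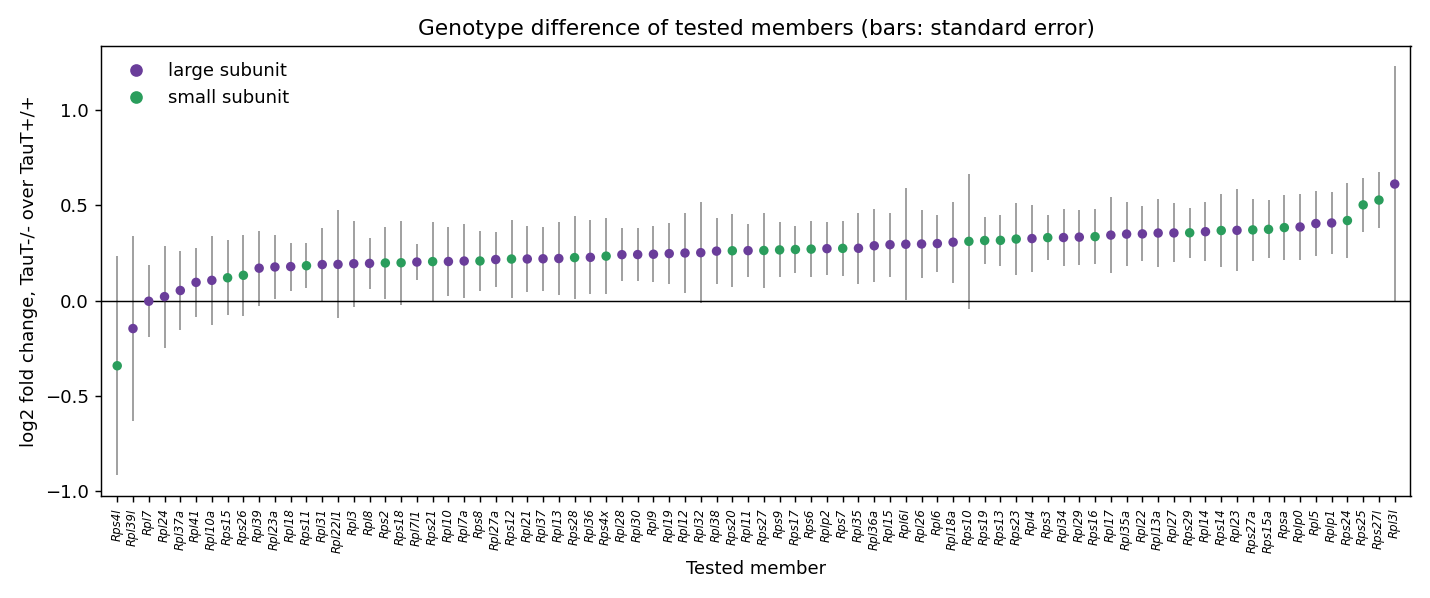
Log2 fold change of TauT-/- over TauT+/+ (y axis) with its standard error for 82 of the 83 tested members (x axis), ordered by value and coloured by subunit. All members shown but *Rps4l*, *Rpl39l* and *Rpl7* lie above 0, and none passed the test.

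The members moved together from library to library, so their signs are not separate observations. The median log2 CPM of the 76 members without an l or l1 ending had an SD of 0.300 between libraries of a group, larger than the median difference between genotypes. DESeq2 called 3 members higher (3.61% of those tested, against 5.34% of all genes called higher) and voom with quality weights called 1 (1.2%, against 3.61%). When the libraries were scaled to their summed member counts, the median of all genes moved from 0.0049 to -0.27. The median of the members was then 0.010, 44 of 83 were above 0 and 0 had an unadjusted p under 0.05. This scaling takes out the difference that the members share, so these 3 values are set largely by construction and are no test of the members. With each near-identical pair counted as 1 library (13 libraries), the median of the members was 0.26 with the female-labelled and 0.33 with the male-labelled ones kept, and 0 members passed, where 0.0133% and 0.0368% of all genes passed. Without both pairs (11 libraries) the median was 0.35 and 0 passed, where 0.0106% of all genes passed, so these counts of 0 say little about the members.

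**Figure D3:**
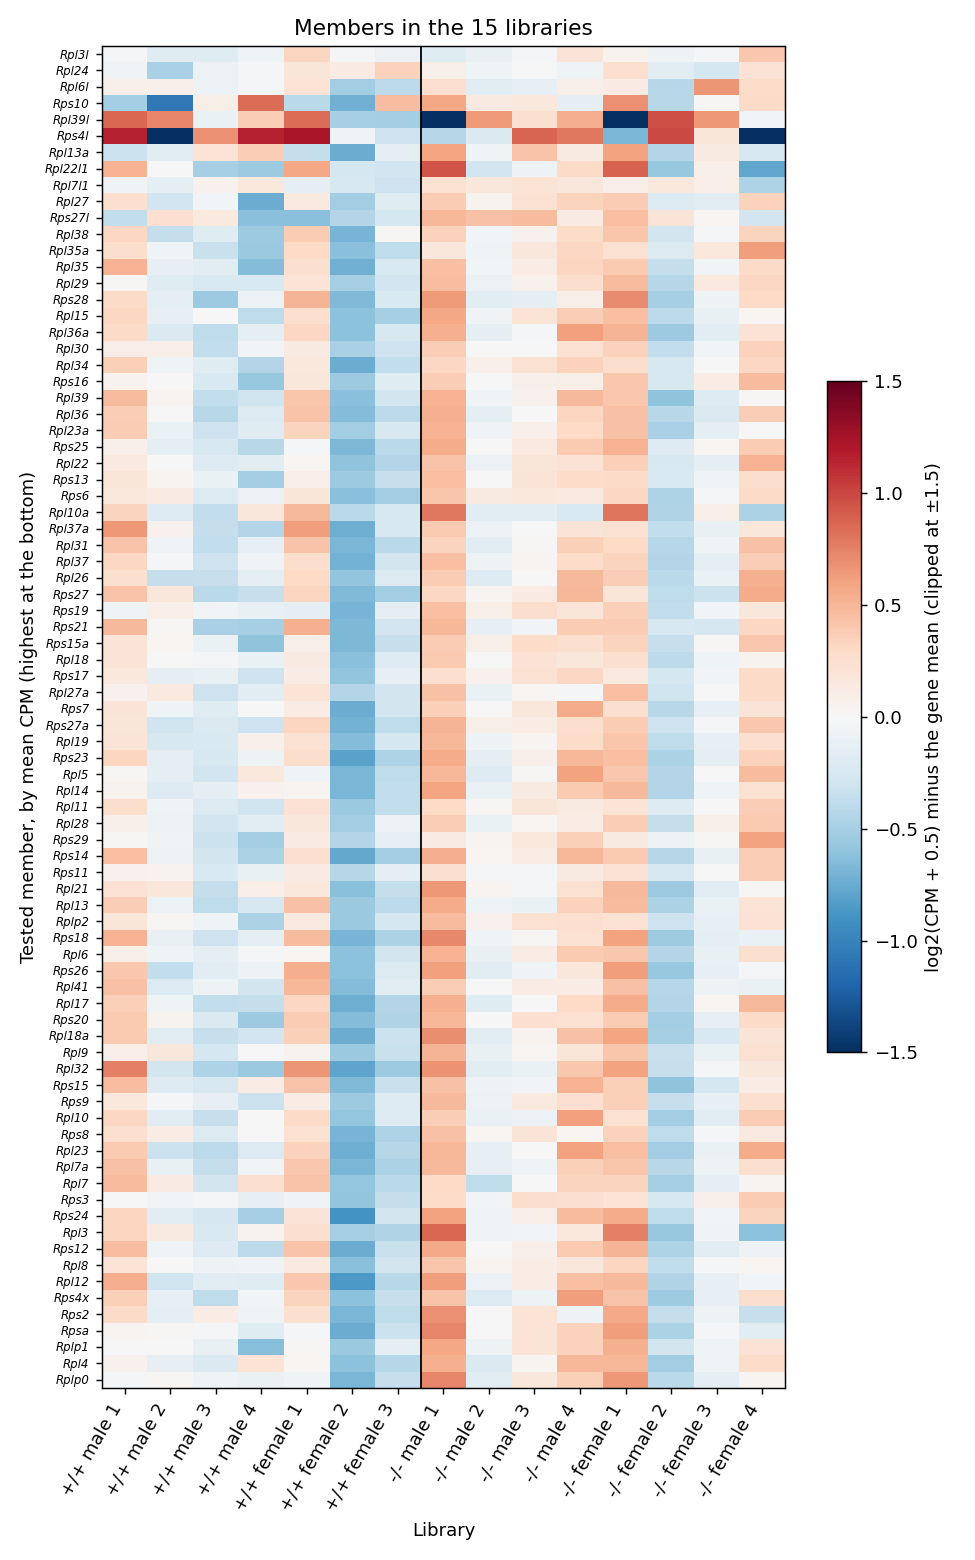
Log2(CPM + 0.5) of 82 of the 83 tested members (rows, by mean CPM) in the 15 libraries (columns), minus the mean of each gene, with red above and blue below it. Whole columns are red or blue, as in the libraries numbered 1 and in TauT+/+ female 2, while *Rpl39l*, *Rps4l* and *Rps10* depart from the columns.

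The acidic stalk proteins recruit the translation factors that hydrolyse GTP. *Rplp0*, the base of the stalk, took more counts than any other member and had 619 to 1006 CPM (median 950) in TauT+/+ and 748 to 1646 CPM (median 1069) in TauT-/- libraries. The highest 2 values were those of TauT-/- male 1 and female 1, and the difference was a log2 fold change of 0.39 (SE 0.17, edgeR adjusted p = 0.198). *Rplp1*, which pairs with *Rplp2* on the stalk, had 462 to 728 CPM (median 667) in TauT+/+ and 598 to 1081 CPM (median 839) in TauT-/- libraries, with a log2 fold change of 0.41 (SE 0.16, edgeR adjusted p = 0.147). *Rplp2* differed by 0.27 (SE 0.14). Per kilobase of the canonical transcript in GENCODE M39, *Rplp1* was the most abundant member at 1356 CPM per kb, followed by *Rps12* at 1194, while *Rplp0* had 750 and *Rpl4* 472.

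Among the other large subunit genes, *Rpl5* is best known together with *Rpl11* for binding the p53 regulator Mdm2 as part of the 5S particle. It had 178 to 319 CPM (median 259) in TauT+/+ and 211 to 434 CPM (median 333) in TauT-/- libraries, a log2 fold change of 0.40 (SE 0.17, edgeR adjusted p = 0.167). The value for *Rpl11* was 0.26 (SE 0.14, edgeR adjusted p = 0.261). *Rpl4*, with the second highest count, differed by 0.33 (SE 0.18, edgeR adjusted p = 0.279). The genotypes overlapped for each of these genes.

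The members with the smallest p were mostly small subunit genes. *Rps25*, which is known for its part in initiation from viral internal entry sites, lies on chromosome 9 (44318436 to 44322627, plus strand, GRCm39). In TauT+/+ libraries it had 185, 159, 148 and 132 CPM (male 1 to 4) and 172, 110 and 132 CPM (female 1 to 3). In TauT-/- libraries it had 259, 174, 195 and 229 CPM (male 1 to 4) and 251, 153, 179 and 228 CPM (female 1 to 4). Of the TauT-/- libraries, 5 were above the highest TauT+/+ value and 3 were within the range of TauT+/+. The log2 fold change was 0.50 (SE 0.14, edgeR adjusted p = 0.0748), and 0.53 (edgeR adjusted p = 0.109) without both near-identical pairs.

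*Rps27l*, a paralog of *Rps27*, lies on chromosome 9 (66853340 to 66856808, plus strand, GRCm39). In TauT+/+ libraries it had 57.5, 88.8, 82.4 and 48.0 CPM (male 1 to 4) and 48.2, 54.9 and 62.2 CPM (female 1 to 3). In TauT-/- libraries it had 106, 101, 104 and 81.3 CPM (male 1 to 4) and 102, 85.2, 76.2 and 61.1 CPM (female 1 to 4). The high values of TauT+/+ male 2 and male 3 overlapped with the lower TauT-/- libraries. The log2 fold change was 0.53 (SE 0.15, edgeR adjusted p = 0.0719), the smallest adjusted p of any member. It passed in 1 of the 15 fits that left out a library, without TauT+/+ male 3 (edgeR adjusted p = 0.0441). In that fit 1236 of all 16852 genes passed, against 211 of 18263 in the main fit, and 1 of 82 members did. The log2 fold change of *Rps27l* fell to 0.37 (edgeR adjusted p = 0.263) without both near-identical pairs.

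*Rps3*, which lies at the mRNA entry channel, had 338 to 512 CPM (median 491) in TauT+/+ and 432 to 662 CPM (median 597) in TauT-/- libraries, a log2 fold change of 0.33 (SE 0.12, edgeR adjusted p = 0.122). *Rps19*, the gene most often mutated in Diamond-Blackfan anaemia, had 142 to 247 CPM in TauT+/+ and 178 to 316 CPM in TauT-/- libraries, with a log2 fold change of 0.32 (SE 0.12). The values were 0.36 (SE 0.13) for *Rps29*, 0.37 (SE 0.15) for *Rps15a*, 0.34 (SE 0.14) for *Rps16* and 0.42 (SE 0.20) for *Rps24*. Their adjusted p lay between 0.129 for *Rps29* and 0.211 for *Rps24* by edgeR's test.

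The paralogs were compared with their partners as the log2 ratio of CPM + 0.5 in each library, by a two-sided exact permutation test within the sex labels with p adjusted over 7 pairs. No ratio difference between the genotypes passed this test, with unadjusted p of 0.382 to 0.84 and an adjusted p of 0.84 for each pair. This does not show that the ratios were equal. The 2450 possible arrangements allow a p as small as 0.000408. They count the near-identical libraries as separate and use the sex labels as given, so the true resolution may be lower.

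*Rps27l* reached 35.8% of the level of *Rps27* per length of the canonical transcript in the median TauT+/+ and 42.1% in the median TauT-/- library (range 17.5% to 50.7%). *Rps27* itself had 138 to 293 CPM in TauT+/+ and 167 to 322 CPM in TauT-/- libraries, with a log2 fold change of 0.26 (SE 0.20). The log2 ratio averaged -1.67 over TauT+/+ (SD 0.57, 7 libraries) and -1.43 over TauT-/- libraries (SD 0.48, 8 libraries), and 6 of the 8 TauT-/- libraries were above the TauT+/+ median. The difference of 0.25 (exact permutation p = 0.382) turned to -0.089 without both near-identical pairs, since TauT+/+ male 1 and female 1 had ratios of -2.34 and -2.49, among the lowest values. TauT-/- female 4, at -2.39, was as low.

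*Rpl22l1* and *Rpl22* encode related proteins at the surface of the large subunit, and the *Rpl22* protein is known to hold down *Rpl22l1*. *Rpl22l1* had 38.7 to 85.1 CPM in TauT+/+ and 32.8 to 110 CPM in TauT-/- libraries, and its highest values in each genotype were those of the libraries numbered 1. *Rpl22* had 122 to 206 CPM in TauT+/+ and 158 to 269 CPM in TauT-/- libraries, with a log2 fold change of 0.35 (SE 0.14, edgeR adjusted p = 0.161) against 0.19 (SE 0.28) for *Rpl22l1*. The 2 genes did not keep a fixed ratio. The lowest log2 ratio was -3.02 in TauT-/- female 4, the library with the highest *Rpl22* and the lowest *Rpl22l1*. The ratio differed by -0.20 between genotypes (exact permutation p = 0.51).

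*Rpl39l*, on chromosome 16 (9949671 to 9992780, plus strand, GRCm39), set the near-identical TauT-/- pair apart. TauT-/- male 1 and female 1 had 3.39 and 2.10 CPM, while the other 6 TauT-/- libraries had 15.3 to 31.3 CPM and the TauT+/+ libraries 10.97 to 29.1 CPM. The X-linked partner *Rpl39*, a small protein of the exit tunnel, had 238 and 220 CPM in the same pair, at the upper end of its range, which began at 107 CPM. The *Rpl39l* to *Rpl39* ratio differed by -0.63 between genotypes (exact permutation p = 0.407) and by 0.24 without both near-identical pairs. The log2 fold change of *Rpl39l* likewise went from -0.15 (SE 0.48) to 0.54 (edgeR adjusted p = 0.28). Per length, *Rpl39l* was at 29.1% of *Rpl39* in the median TauT+/+ and 24.1% in the median TauT-/- library (range 2.20% to 66.2%). The canonical transcripts of these genes differ in length, 821 and 1889 bases, and these percentages depend on the lengths.

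*Rps4l* is an autosomal paralog of the X-linked *Rps4x*. TauT+/+ male 2 had 0.764 CPM of *Rps4l*, while the other TauT+/+ libraries had 12.4 to 37.1 CPM and the TauT-/- libraries 4.58 to 31.6 CPM. *Rps4x* was at 538 CPM in TauT+/+ male 2, near the middle of its range of 381 to 902 CPM. Per length, *Rps4l* was at 3.48% of *Rps4x* in the median TauT+/+ and 2.09% in the median TauT-/- library (range 0.105% to 5.81%), and the ratio differed by -0.26 (exact permutation p = 0.753). *Rpl7l1* was the steadiest paralog at 49.8 to 81.0 CPM, 11.3% of *Rpl7* per length in the median TauT+/+ and 12.7% in the median TauT-/- library. Its log2 fold change was 0.20 (SE 0.094, edgeR adjusted p = 0.208), against -0.0028 (SE 0.19) for *Rpl7*.

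*Rpl3l* had 51 reads in all 15 libraries together, and its log2 fold change of 0.61 (SE 0.62), the largest of the members, rested on 1 to 14 reads per library, with 14 of the 51 in TauT-/- male 4. Its partner *Rpl3*, a core protein of the peptidyl transferase centre, had 336 to 938 CPM. Striated muscle markers, for the tissue where *Rpl3l* is known, included *Ckm*, *Myod1* and *Myog* at 0 in the median library, while *Acta1* and *Des* reached 143 and 179 CPM. *Rpl10l* had 1 read, *Rps12l1* 10 and *Rpl32l* 42, and none of these 3 was tested. With *Rpl6l*, at 0.694 ± 0.21 CPM in TauT+/+ and 0.867 ± 0.32 CPM in TauT-/- libraries (SD, n = 7 and 8), *Rps12l1* and *Rpl32l* are annotated as pseudogenes. *Rpl36al*, whose ending is not in the rule, had 0.160 to 1.13 CPM, and its ratio to *Rpl36a* differed by -0.12 (exact permutation p = 0.632).

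**Figure D4:**
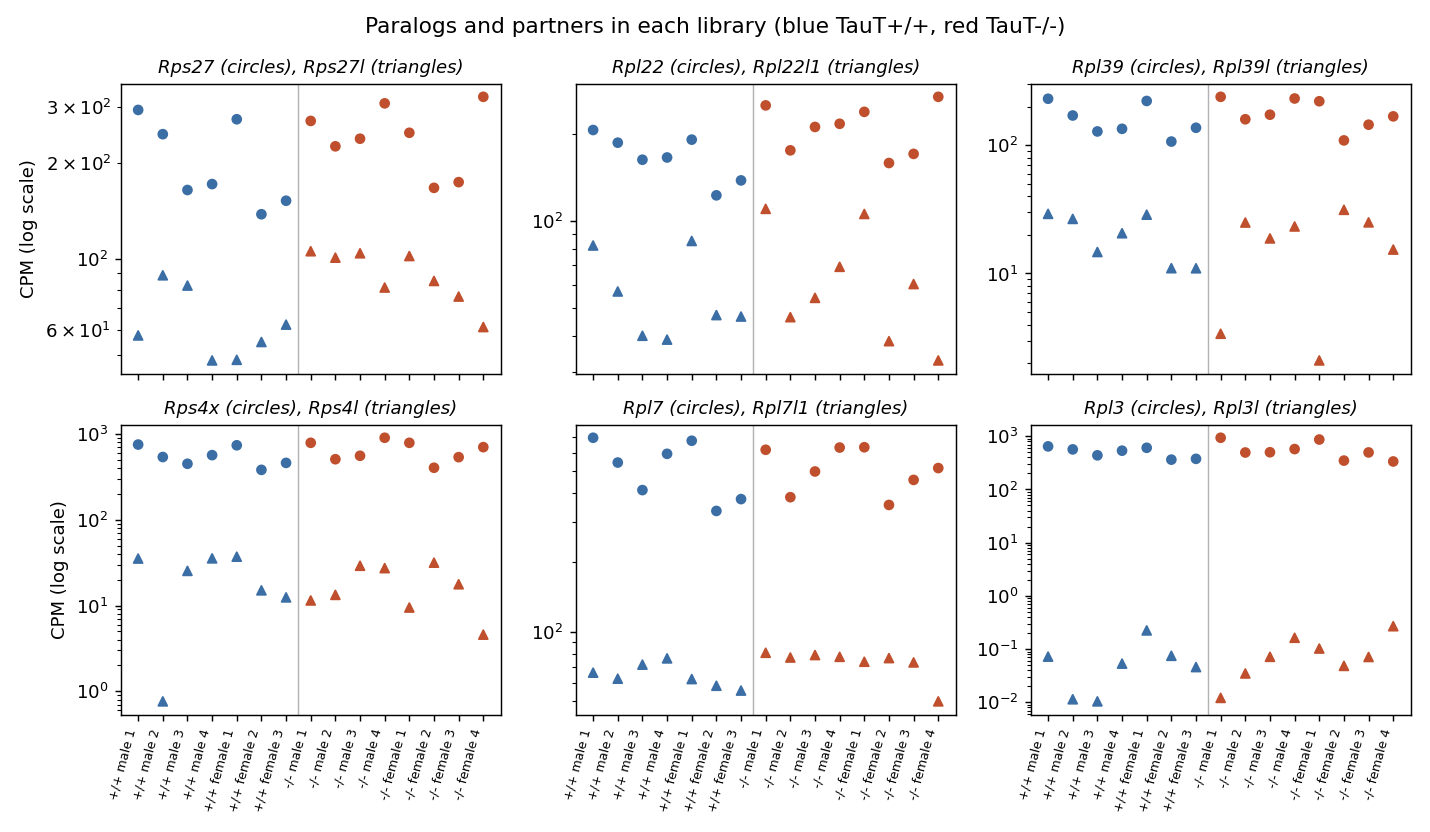
CPM on a log scale (y axis) of 6 paralogs (triangles) and their partners (circles) in the 15 libraries (x axis), coloured by genotype. The low *Rpl39l* values of 3.39 and 2.10 CPM in TauT-/- male 1 and female 1 and the *Rps4l* value of 0.764 CPM in TauT+/+ male 2 stand apart, while the partners do not.

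The X-linked members *Rps4x*, *Rpl10*, *Rpl36a* and *Rpl39* had log2 fold changes of 0.23 (SE 0.20), 0.21 (SE 0.18), 0.29 (SE 0.19) and 0.17 (SE 0.20) by genotype. By sex label, 0 members passed the test, where 0.0164% of all genes passed. At an unadjusted p under 0.05 there was 1 member of 83, *Rpl7l1*, against 1050 of all 18263 genes. With the male-labelled ones of the near-identical pairs kept, there were 37 (median difference 0.35), against 1914 of 19021 genes. With the female-labelled ones kept instead, there were 0 of 82 (median difference 0.012), against 998 of 14994 genes. The count thus depended on which library of each pair was kept. Without both pairs there were 16, against 1511 of 18820 genes. There were 9 without TauT+/+ female 1 (1073 of 19071 genes) and 9 without TauT-/- female 1 (1666 of 18162 genes). In the 12 libraries whose sex-linked genes went with the label there were 0, against 1109 of 17417 genes. Within the sex labels the median genotype difference of the members was 0.27 in male-labelled and 0.25 in female-labelled libraries, and 78 of 83 members were above 0 under both labels. Under each label alone 0 members and 0% of all genes passed. The difference between the labels passed for 0 members and for 0% of all genes in edgeR. At an unadjusted p under 0.05 there were 0 members for it, against 295 of all 18263 genes. DESeq2 called 0 members and 3 genes in all for this difference.

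Within the family, most members held a constant share. For the 76 members without an l or l1 ending, the SD over libraries of the log2 share of the summed member counts had a median of 0.141. *Rpl37*, at 0.0794, was among the steadiest. Of the tested members, *Rps4l* at 1.52, *Rpl3l* at 1.31 and *Rpl39l* at 1.30 varied most, and *Rps27l* at 0.439, *Rpl22l1* at 0.386 and *Rpl7l1* at 0.343 exceeded all of the 76 except *Rps10*, *Rpl24* and, for *Rpl7l1*, *Rpl13a*. *Rpl10a* at 0.311 and *Rpl3* at 0.278 came next among the abundant members, and both were highest in TauT-/- male 1 and female 1.

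**Figure D5:**
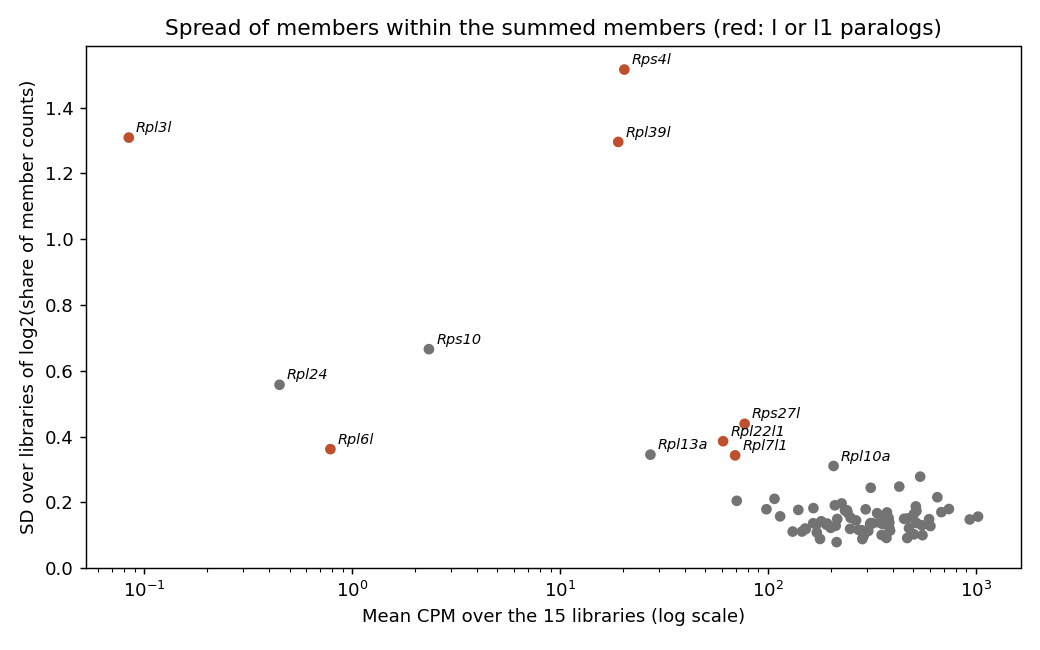
SD over the 15 libraries of the log2 share that each of 82 tested members took of the summed member counts (y axis), against its mean CPM on a log scale (x axis), with l and l1 paralogs in red. *Rps4l* (1.52), *Rpl3l* (1.31) and *Rpl39l* (1.30) lie above all others shown, and most abundant members lie near the median of 0.141.

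The 3 departures among the 76 were *Rps10* (0.666), *Rpl24* (0.558) and *Rpl13a* (0.345), which had mean levels of 2.34, 0.448 and 27.2 CPM against a median of 299 CPM. Overlapping gene models on the same strand share 53.6% of the exon bases of *Rps10*, 71.5% of those of *Rpl24* and 59.3% of those of *Rpl13a*, so their counts are uncertain. More widely, 78 of the 86 members share a stretch of 100 bases with the transcripts of another gene. More than 50% of such stretches are shared in 22 members, among them *Rps27* (58.0%), *Rpl10a* (57.5%), *Rpl3* (79.1%), *Rpl10* (83.3%) and *Rpl36a* (83.8%). *Rps27l*, *Rpl39l*, *Rpl22* and *Rps3* shared none, *Rps4l* 1.11% and *Rps25* 19.1%. How reads that matched several genes were counted is not given in the sources used here.

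Of ribosomal genes that the spelling leaves out, *Rps3a1* differed by 0.087 (SE 0.16), *Rack1* by 0.24 (SE 0.18) and *Fau*, a fusion of a ubiquitin-like with a ribosomal protein, by 0.59 (SE 0.22, edgeR adjusted p = 0.136).

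Genes of the same pathway were taken from hand-written lists. Among 19 translation factors with TOP mRNAs, 0 passed the test, 19 were above 0 and the median was 0.22, with 0.41 (SE 0.17, edgeR adjusted p = 0.162) for *Npm1* and 0.33 (SE 0.14, edgeR adjusted p = 0.183) for *Tpt1*. Among 90 ribosome biogenesis genes, 32 were higher and 0 lower at an unadjusted p under 0.05, where 11.8% of all genes were higher. The list was not tested as a whole. After adjustment 1 rose and 0 fell, a share near the 1.16% of all genes that passed. Of the 90, 80 were above 0 and the median was 0.22. The gene that rose was *Noc4l*, a factor for assembly of the small subunit, which had 14.3 CPM in TauT+/+ (SD 2.7, 7 libraries) and 20.6 CPM in TauT-/- libraries (SD 1.7, 8 libraries), for a log2 fold change of 0.54 (SE 0.11, edgeR adjusted p = 0.0418). Among 21 tested growth regulators of ribosome synthesis, 0 passed. *Eif4e*, the cap-binding protein, had a log2 fold change of 0.36 (SE 0.097, edgeR adjusted p = 0.0655), and *Myc*, an activator of ribosomal genes, of 0.90 (SE 0.30, edgeR adjusted p = 0.102). Among 19 genes of p53 and nucleolar stress, 0 passed, 9 were above 0 and 10 below, and the p53 target *Bax* had a log2 fold change of 0.25 (SE 0.12, edgeR adjusted p = 0.213). *Btg2*, an antiproliferative p53 target, had a log2 fold change of -1.52 (SE 0.39, edgeR adjusted p = 0.0623), and *Perp*, another p53 target, of -2.45 (SE 0.73, edgeR adjusted p = 0.0819).

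Markers of other cells differed in level between libraries, and their lists were not tested as a whole. The 20 macrophage markers were all expressed, their summed level was 1557 to 10394 CPM in TauT+/+ and 7248 to 25076 CPM in TauT-/- libraries, and 2 of 20, *Cd68* and *Ctss*, rose (0.564% of all genes did), with 19 above 0 and a median log2 fold change of 0.95. *Ptprc*, the gene of CD45, by which cells were depleted, had 28.6 to 379 CPM. The 14 stromal markers summed to 28410 to 47274 CPM in TauT+/+ and 6591 to 41017 CPM in TauT-/- libraries, with *Lepr*, a defining MSC marker in marrow, at 0 to 2.37 CPM. Of the 14, 0 passed, 4 were above 0 and 10 below, with a median log2 fold change of -0.54. *Col1a1*, *Col1a2* and *Cxcl12* had the highest levels of the 14, with medians of 10200, 5359 and 2298 CPM. Endothelial markers summed to 1.33 to 8.86 CPM in TauT+/+ and 7.35 to 37.9 CPM in TauT-/- libraries, and 0 of the 5 tested passed. Of these 5, 3 were above 0 and 2 below, with a median log2 fold change of 0.12. *Kdr*, which reached 35.8 CPM, had a log2 fold change of 2.18 (SE 0.52, edgeR adjusted p = 0.0564). *Pecam1* had medians of 0.253 CPM in TauT+/+ and 0.148 CPM in TauT-/- libraries. The part of the markers of other cells in the results was not tested. Erythroid markers summed to at most 0.112 CPM, with *Hbb-bs* and *Hba-a2* at 0 in every library. The TauT-/- libraries with the highest member shares, the near-identical male 1 and female 1, had the lowest macrophage sums of their genotype, at 7248 and 7785 CPM. TauT-/- male 4, with the next highest share of 3.09%, had a sum of 17444 CPM. TauT+/+ male 2, with the lowest sum of all, 1557 CPM, had a share of 2.18%. A relation between member share and macrophage sum was not tested. With the macrophage mean as a covariate the median of the members was 0.31, and 0 members and 0% of all genes passed. In such bulk samples, more cells of a type and more RNA per cell cannot be told apart.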

How the data were processed

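RNA-sequencing counts of 15 MSC libraries were analysed. Per the paper's methods, the authors amplified full-length cDNA from 1 ng of total RNA with oligo-dT priming, sequenced 150 nt paired ends, trimmed reads with fastp 0.23.1, mapped them with STAR 2.7.9a to GRCm39 with GENCODE M31 (called human in the text, but a mouse build) and counted them by strand with featureCounts of Subread 2.0.1. The deposited values are raw counts per gene, not normalized, and 0 columns lacked a sample.

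The main test was the quasi-likelihood test of edgeR 4.0.16 in R 4.3.3 (TMM, filterByExpr on the 4 groups, labelled sex and genotype in the model) over all 18263 genes, with Benjamini-Hochberg adjustment. The SE is the log2 fold change divided by the root of F. DESeq2 1.42.0 and voom of limma 3.58.1 were alternatives. Tests were tried on simulated data. Positions and lengths are from GENCODE M39 on GRCm39, and promoters from RefSeq on GRCm38.p6. Ratios used a pseudocount of 0.5 CPM. Python 3.11.15 and SciPy 1.17.1 were used.

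The members and lists were chosen with earlier results of these data known. The genes named are the paralogs and partners, X-linked members, the 3 most abundant, the 10 with the smallest p, the 5 largest changes in each direction (only 3 were below 0), the untested members, the genes outside the spelling and, from each list, up to 3 past the threshold or the 2 with the smallest p. *Rplp2*, *Rpl11*, *Rps12*, *Rpl37*, *Rpl10a*, *Rpl24*, *Rps10*, *Rpl13a*, *Rpl6l*, *Bax* and *Kdr* were named after their values were seen. Alternatives were other scalings, filters, models and subsets of libraries. Sequences of proteins were not used here, and a few genes are not reported or plotted here.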

Additional observations from a re-analysis of the deposited data

Results flagged for a closer look

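In groups of 4 libraries, 33 results gave 99 groups, of which chance would flag about 1 in 20, and 5 were flagged because 1 library lay far from the other 3. The gap of that library divided by the range of its group is given for each. *Rpl7l1* was low in TauT-/- female 4, at 49.8 CPM against 73.5 to 76.8 CPM (0.88). *Rps3* was low in TauT-/- male 2, at 497 CPM against 605 to 618 CPM (0.885). The *Rpl3l* to *Rpl3* log2 ratio was low in TauT-/- male 1, at -10.84 against -9.86 to -9.76 (0.91), with *Rpl3l* at 1 read there. The *Rps4l* to *Rps4x* log2 ratio was low in TauT+/+ male 2, at -8.74 against -4.39 to -3.98 (0.912). The share of all counts on the members was high in TauT+/+ male 1, at 2.93% against 2.13% to 2.23% (0.874). TauT+/+ male 1 is 1 of a near-identical pair, and its sex-linked genes went against the label.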

How the results depend on the processing

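Over 33 alternatives the count of members past the threshold stayed at 0 in 30, and was 3 with DESeq2 (*Rps25*, *Rps27l* and *Rps3*), 1 with voom and 1 without TauT+/+ male 3 (*Rps27l* in both). Without TauT+/+ male 3, 1236 of all 16852 genes passed, against 211 of 18263 in the main fit. The median log2 fold change of the members was above 0 under each alternative that leaves it free, up to 0.36 without TauT+/+ female 1. Scaling to the members sets their median near 0 by construction (0.010). Leaving out each library gave 0.18 to 0.36 for the median, 0 or 1 for the calls and 76 to 82 for the members above 0. Scaled to the members, 44 were above 0, likewise by construction. The number of members with an unadjusted p under 0.05 ran from 0 to 51. The 0 came with scaling to the members, which takes out the difference they share. The 51 came with a replicate block (61.4% of the members, against 13.1% of all genes that were higher at this level). The sex label and its interaction with genotype called 0 members in all 29 alternatives. Among all genes they called at most 43 and 3 of 18263, both with DESeq2, so these counts of 0 say little about the members.

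Labels gave the same replicate numbers to both genotypes, but the deviations of same-numbered libraries correlated at 0.28, 0.21, 0.60 and 0.19 (male) and 0.25, 0.054 and -0.046 (female), so not every pair passed 0.1 and the numbers were not taken as pairs, although 5 of the 7 pairs correlated better with their own number than with another, which is a hint from the data and not from the design. With a replicate block, in which TauT-/- female 4 has no partner, 0 members passed (smallest adjusted p 0.0546 by edgeR), where 171 of all 18263 genes passed. At an unadjusted p under 0.05, 51 members were higher (61.4%, against 13.1% of all genes). The median of the members was 0.25 and 81 were above 0. The *Rps27l* to *Rps27* ratio difference was then 0.38, that of *Rpl39l* to *Rpl39* -0.66, and *Rps4l* went to 0.13.

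Ratio differences changed sign, without passing a test, for *Rpl22l1*/*Rpl22* in male-labelled libraries alone (0.11), for *Rps27l*/*Rps27* (-0.089) and *Rpl39l*/*Rpl39* (0.24) without both pairs, and for *Rps4l*/*Rps4x* with the male-labelled ones of the pairs kept (0.0025), in male-labelled libraries alone (0.18) and without both pairs (0.30). For *Rpl3l*/*Rpl3*, 0.1 CPM as pseudocount gave 0.082, 13 libraries gave 0.029 and 0.051, 12 libraries gave 0.084 and 11 gave 0.16. Leaving out each library gave -0.20 to 0.091 for it.

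Log2 fold changes of single members that changed sign, none past the threshold, were these. Scaled to the members, which lowers the median of all genes to -0.27 and sets that of the members near 0, they were -0.091 for *Rpl22l1*, -0.099 for *Rpl3*, -0.062 for *Rpl10*, -0.084 for *Rpl39*, -0.060 for *Rpl7l1* and -0.035 for *Rps4x*. In female-labelled libraries alone, they were -0.024 for *Rpl22l1*, 0.11 for *Rpl39l* and 0.067 for *Rpl7*. Voom gave 0.012 for *Rpl7* and 0.16 for *Rps4l*. The macrophage covariate gave -0.39 for *Rpl3l* and 0.085 for *Rpl7*. With 1 library of each pair left out, *Rpl39l* was at 0.11 and 0.15 and *Rpl7* at 0.019 and 0.068. With 12 libraries *Rpl39l* was at 0.0066. Without both pairs, *Rpl39l* was at 0.54, *Rpl7* at 0.12 and *Rps4l* at 0.27. Leaving out each library gave -0.0041 to 0.34 for *Rpl22l1*, -0.32 to 0.018 for *Rpl39l* and -0.087 to 0.11 for *Rpl7*. The causes were not tested. The added alternatives (scaling to the members, the filter by the design matrix and the 11 libraries) were chosen after seeing the data. *Rpl3l* and the members under 3 CPM are limited by depth.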
